A study of Mus with 5 samples.

Results

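The genes described here encode 8 coregulators of nuclear receptors: the p160 coactivators Ncoa1, Ncoa2 and Ncoa3, the Mediator subunit Med1, the corepressor Ncor1 with its partners Tbl1x and Tbl1xr1, and the ligand-dependent corepressor Nrip1. They were taken as a list of symbols, and a peak was counted for a gene when the gene annotation attached to that peak by the authors held the symbol. By this rule 45 of the 27480 peaks in the 4 lists belonged to them. All 8 genes were named at least once, and they stand among 12699 genes that any list named and that matched the RefSeq table.

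Retinoic acid receptor α (RARα) sits on DNA with a retinoid X receptor partner. Without ligand it holds corepressor complexes built around NCoR, which include the TBL1 proteins and a histone deacetylase. Retinoic acid (RA) changes the shape of the receptor, so that corepressors leave and p160 coactivators, histone acetyltransferases and Mediator are taken on. RIP140, the product of Nrip1, is unusual in that it binds liganded receptors and represses, and its gene is a known RA target in several cell types. BATF is an AP-1 family factor that opens chromatin in activated T cells and drives their effector genes. The question the lists address here is where RARα and BATF were found at the genes for the receptor's own cofactors, and whether 1 h of RA changed that.

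The cells were WT mouse CD8 T cells isolated as naive cells from spleen. Antibodies to CD3 and CD28 together with IL-2 activated them over 24 h, IL-2 alone at 100 U/ml kept them for a further 24 h, and 50 nM RA or none (control) was given for the last 1 h before ChIP with anti-RARα, anti-BATF or normal rabbit IgG. The study kept C57BL/6 and dLck-Cre mice as WT controls and gives an age range in weeks for most of its experiments; which WT strain, what age and how many mice these ChIP cells came from is not stated, nor whether the IgG cells had received RA. The treatment field of the labels names interleukins other than the IL-2 of the protocol. Each of the 4 lists (RARα control, RARα RA, BATF control and BATF RA) came from 2 alignment files called together against 1 IgG file, so a condition is 1 list with no replicate spread, and no test between conditions was possible. ChIP-seq peaks cannot check a cell type the way expression does; the BATF control list held 16 peaks naming Cd8a and 20 naming Cd8b1, and none naming Cd4.

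The pools held 16424269 to 23110180 fragments, and 1172, 597, 15812 and 9899 peaks were listed for RARα control, RARα RA, BATF control and BATF RA. Fragments are the fragments covering the summit of a peak, and fold enrichment is their number over the local IgG level, with 1 added to each side. What is called the IgG level here is the local background used by the peak caller, not a count of IgG fragments. Its lowest value in a list is a floor at which many peaks stand. Intervals on fragments are exact 95% Poisson intervals and cover counting error only; a summit is the highest point of its peak, which favours high counts. The peak numbers given by the peak caller ran beyond the number of peaks in each list, so some calls were not analysed here. Around the 8 genes, 6 of the 32 combinations of gene and list had such a skipped number in an interval that reached the gene or the 100 kb around it. Counts of peaks are therefore counts of listed peaks.

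BATF peaks were listed at most of the coregulator genes, and RARα peaks at few. A BATF control peak named 7 of the 8 genes, with 25 peaks in all, and a BATF RA peak named 6 of them, with 14 peaks. By the same annotation, 48.6% of protein-coding genes were named by the BATF control list and 38.2% by the BATF RA list. The coregulator genes are long, from 41160 to 235123 bp, and among protein-coding genes at least as long as the shortest of them the shares were 53.8% and 42.8%. RARα control peaks named 2 of the 8 genes (3 peaks), against 7.18% of all protein-coding genes and 10.2% of the long ones. RARα RA peaks named 3 of the 8 genes (3 peaks), against 3.19% of protein-coding genes. The share among the long genes was not computed for this list, and 1 of the 3 peaks, at Ncoa1, had a q-value of 0.654. With 8 genes and no replicates, these counts are given as a description.

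**Figure D1:**
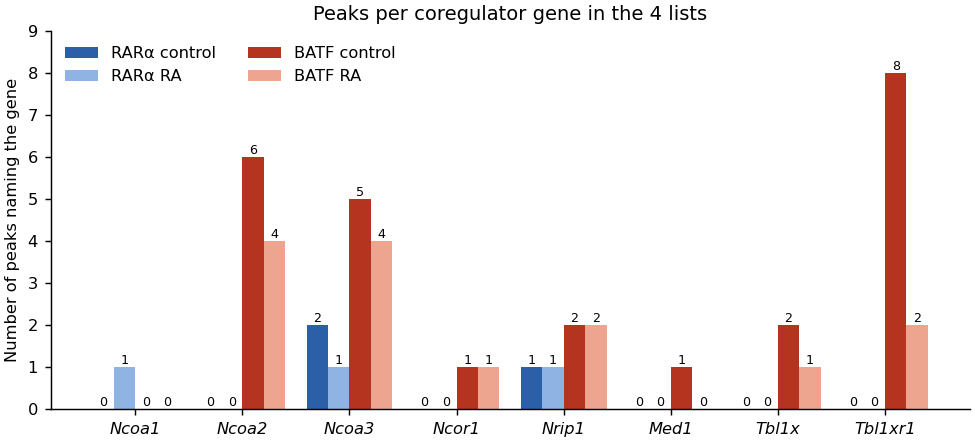
Number of peaks (y axis) that name each coregulator gene (x axis) in the RARα control, RARα RA, BATF control and BATF RA lists (colours). Tbl1xr1 and Ncoa2 have the most BATF control peaks (8 and 6), and Ncoa3 and Nrip1 have RARα peaks in both conditions.

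Ncoa3, also known as SRC-3 or AIB1, is a p160 coactivator with histone acetyltransferase activity. It was the member with the strongest RARα peak. The gene lies on chromosome 2 of mm10 from 165992637 to 166073242 (gene ID 17979). The RARα control peak in intron 1 (166029977 to 166032036) reached 56 fragments (42.3 to 72.7) and a fold enrichment of 13.3. It ranked 6 of 1172 by fold and, at 2060 bp, was the widest peak of its list. Its p-value on the -log10 scale was 48.6, and the local IgG level was 1.14 times the lowest level in the list.

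With RA, the Ncoa3 intron 1 peak was narrower and lower but still among the strongest RARα peaks. The RARα RA peak from 166030990 to 166031718 lay wholly inside the control peak, with its summit 40 bp from the control summit. It had 30 fragments (20.2 to 42.8) and a fold of 6.62, which ranked 10 of 597 in the RA list. Scaled to a pool of 1000000 fragments (scaled fragments), the summit stood at 2.47 in the control and 1.33 with RA, a ratio of 0.540 with an exact 95% interval of 0.335 to 0.856. The interval leaves out 1, but it compares 2 pools and not 2 conditions, since nothing is known of the spread between samples.

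A second RARα control peak of Ncoa3 had no counterpart with RA. It lay in an intron, from 166046085 to 166046431, over a B1 SINE repeat by the annotation, and had 16 fragments (9.15 to 26.0) and a fold of 4.38. The nearest RARα RA peak was 14367 bp away, namely the one in intron 1.

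Both RARα control peaks of Ncoa3 shared bases with BATF peaks. The wide intron 1 peak contained 2 BATF control peaks, from 166030135 to 166030602 with a fold of 4.30 and from 166031111 to 166031603, of 26 fragments (17.0 to 38.1), with a fold of 6.12. The second of these was the strongest BATF control peak of Ncoa3 and contained the RARα control summit, whereas the first lay 388 bp outside the RARα RA peak. In the BATF RA list the same places held peaks from 166030112 to 166030567 (fold 4.80) and from 166031324 to 166031861 (16 fragments, 9.15 to 26.0, fold 5.62, the strongest BATF RA peak of the gene). So at intron 1 both BATF peaks were listed in both conditions while the RARα peak shrank from 2060 to 729 bp. At the weaker RARα site, the BATF control peak from 166045935 to 166046208 overlapped it by 124 bp with 15 fragments and a fold of 4.09, the lowest of the gene's BATF control peaks. Neither factor had a peak there with RA, and the nearest BATF RA peak was 14074 bp away.

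BATF was also listed at the start of Ncoa3 and upstream of it. At the promoter the BATF control peak, between 165992487 and 165992988, reached a fold of 6.00, and an RA peak inside it (165992651 to 165992931) reached 4.63. An intergenic peak 37039 bp from the gene, which the annotation also gives to Zmynd8, stood at 4.99 in the control (165954750 to 165955598) and 4.02 with RA (165954879 to 165955277). Upstream of this intergenic peak, the numbering skipped 5 peaks in the BATF control list and 3 in the BATF RA list, and those calls were not analysed here.

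**Figure D2:**
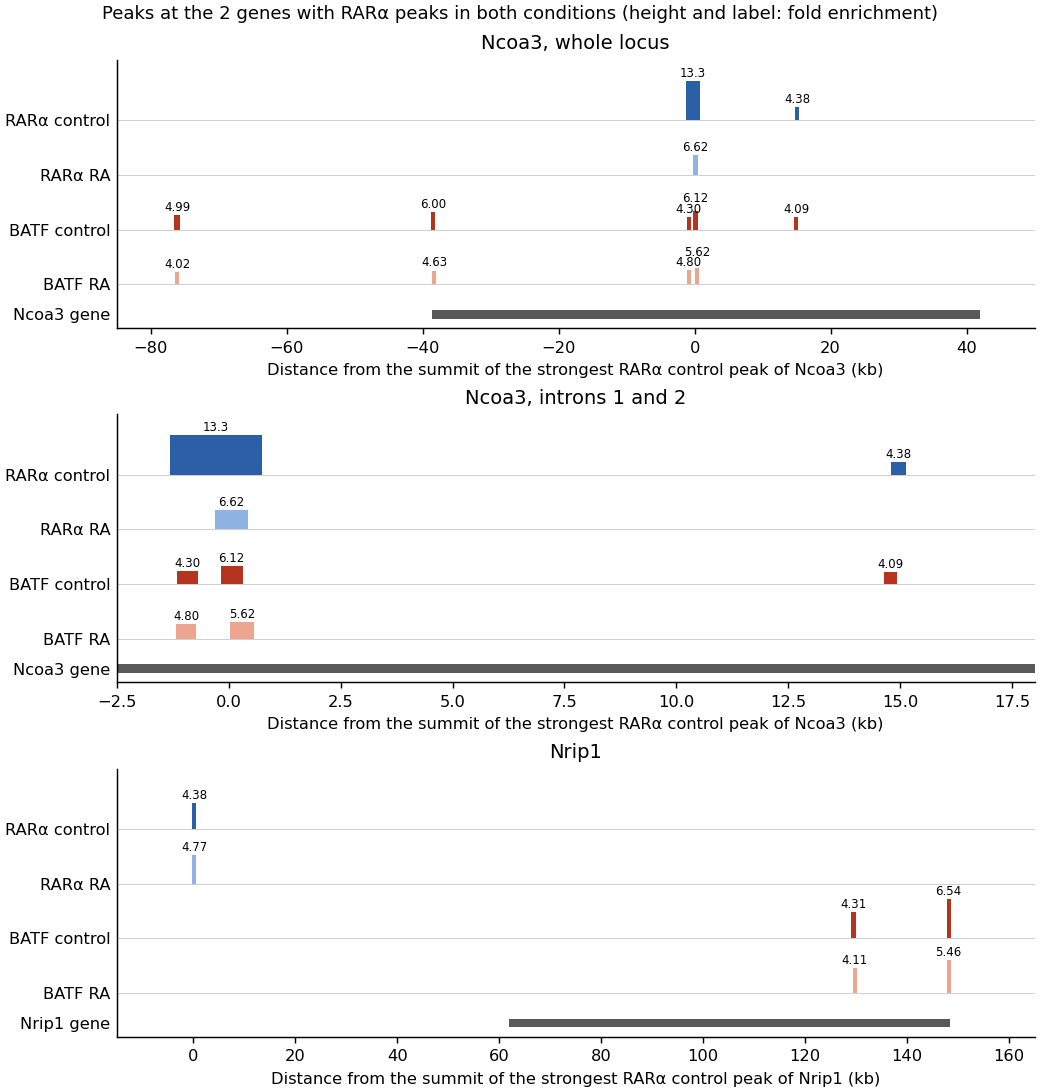
Peaks of the 4 lists at Ncoa3 (whole locus, then introns 1 and 2) and Nrip1, by distance in kb from the summit of the gene's strongest RARα control peak. Bar height and label give fold enrichment, scaled within each panel, the grey bar is the gene, and very narrow peaks are widened to be visible; the Ncoa3 RARα peak goes from 13.3 to 6.62, and the Nrip1 RARα peak stands away from the gene and from BATF.

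Nrip1 encodes RIP140 and lies on chromosome 16 from 76287403 to 76373827 (gene ID 268903). Its RARα peak was present in both conditions and was not lower with RA. In the control it covered 76225260 to 76225776, at 16 fragments (9.15 to 26.0) and 4.38-fold enrichment. With RA it covered 76225216 to 76225806, enclosing the control peak, at 19 fragments (11.4 to 29.7) and 4.77-fold enrichment, rank 35 of 597. The ratio of RA to control in scaled fragments was 1.20 (0.583 to 2.49), so neither a rise nor a fall could be told from counting error. Of all RARα pairs within 5 kb, 68.3% had the lower fold with RA, and of the 2 coregulator pairs Ncoa3 did and Nrip1 did not.

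This RARα site is intergenic, 61627 bp from Nrip1 in the control list, and the annotation also names the long noncoding RNA gene 4930578N18Rik. It lies beyond the end of Nrip1 that is away from the promoter-class peaks. A limit of 10 kb around the gene would leave Nrip1 with no RARα peak. BATF was not listed there: the nearest BATF control peak was 128679 bp away and the nearest BATF RA peak 128975 bp from the control site. BATF was instead listed inside the gene. At its promoter the control peak (76373183 to 76373967) reached 31 fragments (21.1 to 44.0) and a fold of 6.54. The RA peak there (76373178 to 76373578) reached 19 fragments (11.4 to 29.7) and a fold of 5.46. A weaker peak in a LINE repeat of an intron, from 76354455 to 76355488, had 4.31, and the RA peak inside it (76354751 to 76355007) had 4.11.

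Ncoa1, or SRC-1, was the founding member of the p160 family. It lies on chromosome 12 from 4247362 to 4477206 (gene ID 17977) and was named by a single peak in the 4 lists. That peak was an RARα peak of the RA list in intron 12 (4292182 to 4292471), of 12 fragments (6.20 to 21.0) and 3.29-fold enrichment. Its q-value was 0.654, and it is left out by a q-value limit of 0.05. The nearest RARα control peak was 435849 bp from it. No listed BATF peak lay inside Ncoa1, and the nearest, at Adcy3, was 113904 bp from the gene in the control list and 113996 bp with RA. In each BATF list 1 number was skipped between that peak and the next listed one beyond Ncoa1, so 1 peak somewhere in an interval of 458929 bp (control) or 460013 bp (RA) was not analysed and could lie at this gene.

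Ncoa2, known as SRC-2, TIF2 or GRIP1, is the third p160 coactivator and also serves the glucocorticoid receptor. It had no RARα peak within 2714962 bp but carried the strongest BATF peak of the group. The gene lies on chromosome 1 from 13139105 to 13374227 (gene ID 17978). In intron 16 (13155067 to 13155889) the control peak reached 133 fragments (111 to 158) and a fold of 34.3, rank 50 of 15812. With RA it spanned 13155102 to 13155887 and reached 71 fragments (55.5 to 89.6) and a fold of 23.8, rank 105 of 9899. In scaled fragments the values were 5.76 and 4.32, a ratio of 0.751 whose interval just reached 1 (0.555 to 1.01).

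The other BATF peaks of Ncoa2 were ordinary ones. The intron 2 site (13267330 to 13267659) stood at a fold of 5.53 in the control and 4.90 with RA. At the promoter 2 control peaks, from 13372219 to 13372712 and from 13372993 to 13374807, with folds of 5.25 and 6.23, faced a single RA peak from 13372901 to 13373467 with 4.55. The intron 14 peak (13161470 to 13161732, fold 4.35) and a peak in intron 1 (13293354 to 13293880, fold 4.23) had no RA peak within 5 kb. Conversely, intron 1 held an RA peak of 15 fragments (13301500 to 13301758, fold 4.13) that lay 7620 bp from the nearest control peak. It was the only BATF RA peak of the 14 without a control peak within 5 kb; over the whole list 96.3% had one. Of all protein-coding genes, 2.88% had as many BATF control peaks as Ncoa2, which had 6.

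**Figure D3:**
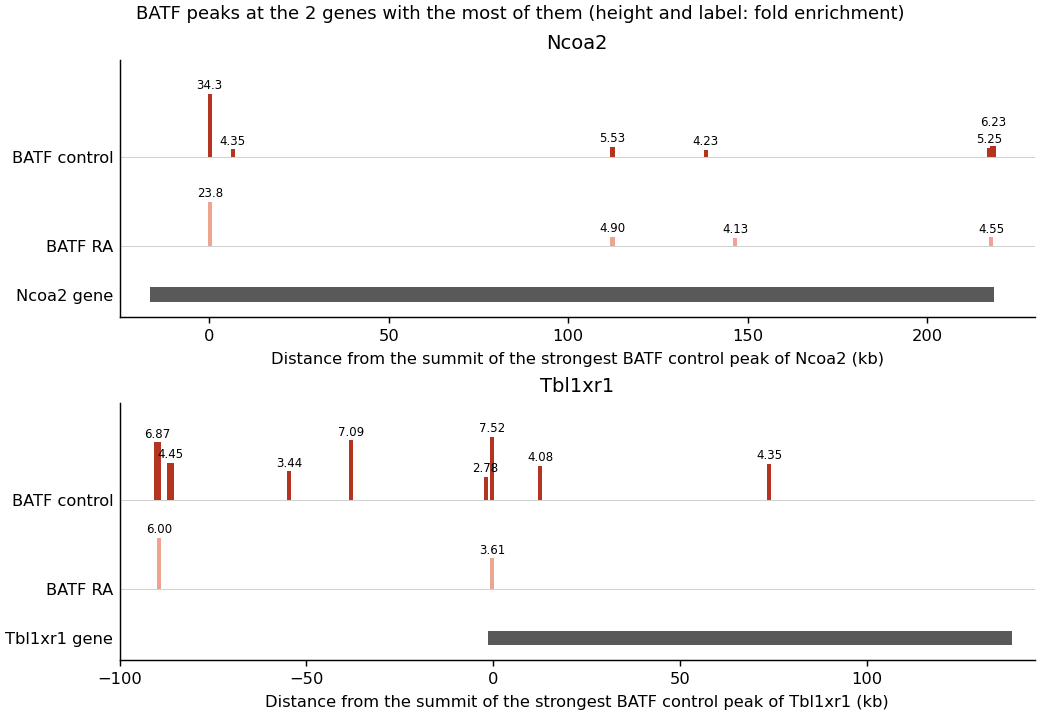
BATF control and BATF RA peaks at Ncoa2 and Tbl1xr1, by distance in kb from the summit of the gene's strongest BATF control peak. Bar height and label give fold enrichment, scaled within each panel, the grey bar is the gene, and very narrow peaks are widened to be visible; Ncoa2 keeps its strongest site (34.3 and 23.8) and Tbl1xr1 goes from 8 listed peaks to 2.

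Ncor1, the scaffold of the NCoR corepressor complex, had 1 BATF peak in each condition and no RARα peak. It lies on chromosome 11 from 62315663 to 62457414 (gene ID 20185). The BATF control peak spans the promoter from 62456376 to 62458740, an interval that the annotation shares with the neighbouring gene Pigl, and had 53 fragments (39.7 to 69.3) and a fold of 10.7. Within it, the RA peak (62456895 to 62458479) reached 24 fragments (15.4 to 35.7) and a fold of 7.81. These were the second strongest BATF peaks of the group in both lists. In scaled fragments they stood at 2.29 and 1.46, a ratio of 0.637 (0.376 to 1.05). The nearest RARα control peak was 166828 bp from the gene, at Specc1.

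Tbl1xr1 and Tbl1x encode the WD40-repeat exchange factors of the NCoR complex. Tbl1xr1, on chromosome 3 from 22076253 to 22216594 (gene ID 81004), had more BATF control peaks than any other member, and only 2 of them shared bases with an RA peak. There were 8 in the control, a number reached by 278 protein-coding genes (1.27%), and 2 with RA. Of the 8, 4 were intergenic, 2 lay at the promoter and 2 in introns, with folds from 2.78 to 7.52. The strongest, at the promoter (22076805 to 22078030), reached 34 fragments (23.5 to 47.5) and a fold of 7.52. There the RA peak (22076792 to 22077050) reached 13 fragments (6.92 to 22.2) and a fold of 3.61. Its ratio in scaled fragments, 0.538 (0.261 to 1.05), was the lowest of the BATF pairs.

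The intergenic peaks of Tbl1xr1 lay 36810 to 87630 bp from the gene, on its promoter side. The farthest (21986990 to 21988623) reached 6.87-fold enrichment in the control and 6.00 with RA (21987677 to 21988310, 26 fragments, 17.0 to 38.1), the strongest BATF RA peak of Tbl1xr1. Its neighbour from 21990410 to 21992224 stood at 4.45, and the next one (22022468 to 22022737) at 3.44. The nearest of the 4, from 22039121 to 22039443 in an ERVK element, had 27 fragments (17.8 to 39.3) and a fold of 7.09, above the median of 5.40 for the list. It had no RA peak within 37349 bp, the only one of the unmatched coregulator peaks with a fold above that median. The intron peaks, in intron 1 (22089709 to 22090040, fold 4.08) and intron 2 (22151011 to 22151328, fold 4.35), likewise had no RA peak within 5 kb. The nearest RARα control peak was 164650 bp from Tbl1xr1.

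Tbl1x, the X-linked paralogue, on chromosome X from 77509549 to 77662722 (gene ID 21372), had only promoter peaks. The control list had BATF peaks from 77509273 to 77509618 (30 fragments, 20.2 to 42.8, fold 7.44) and from 77510684 to 77512289 (20 fragments, fold 4.09). The RA list had 1, between 77511229 and 77512006, of 14 fragments (7.65 to 23.5) and 4.96-fold enrichment. It lies inside the weaker control peak, so that the stronger control site at the very start of the gene was left without an overlapping peak, though within 1611 bp of one. The RARα control list skipped 1 peak number in a long interval that includes Tbl1x, and the RARα RA list skipped 1 in a long interval that includes Tbl1xr1.

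Med1, the Mediator subunit that binds liganded nuclear receptors directly, had 1 BATF control peak and no other. The gene lies on chromosome 11 from 98152154 to 98193313 (gene ID 19014). The peak covers the promoter from 98192764 to 98193236 with 34 fragments (23.5 to 47.5), but its fold was 2.88, near the bottom of the list at rank 15483 of 15812. The local IgG level there was 11.0, which is 3.85 times the lowest level in the list. A promoter peak of Tbl1xr1 from 22075121 to 22076223 was similar, with 30 fragments, a fold of 2.78 and an IgG level 3.50 times the lowest; the median over the 25 coregulator peaks was 1.26 times. The part of the IgG level in these low folds was not tested. No BATF RA peak named Med1.

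Set against all peaks of their lists, the few RARα peaks at coregulator genes had folds above the list median, and most BATF peaks did not. All 3 RARα control peaks lay above the list's median fold of 3.09, and all 3 RARα RA peaks above 2.87. The Ncoa3 intron 1 site and the Nrip1 site are in both lists, and the RA peak at Ncoa1 had a q-value of 0.654. With so few peaks this describes those places only. Of the BATF control peaks, 11 of 25 exceeded 5.40, and of the BATF RA peaks, 5 of 14 exceeded 5.29. Promoter peaks made up 10 of the 25 BATF control peaks (40.0%, Wilson 95% interval 23.4 to 59.3), against 58.7% of the list. None of the RARα peaks at these genes was at a promoter.

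**Figure D4:**
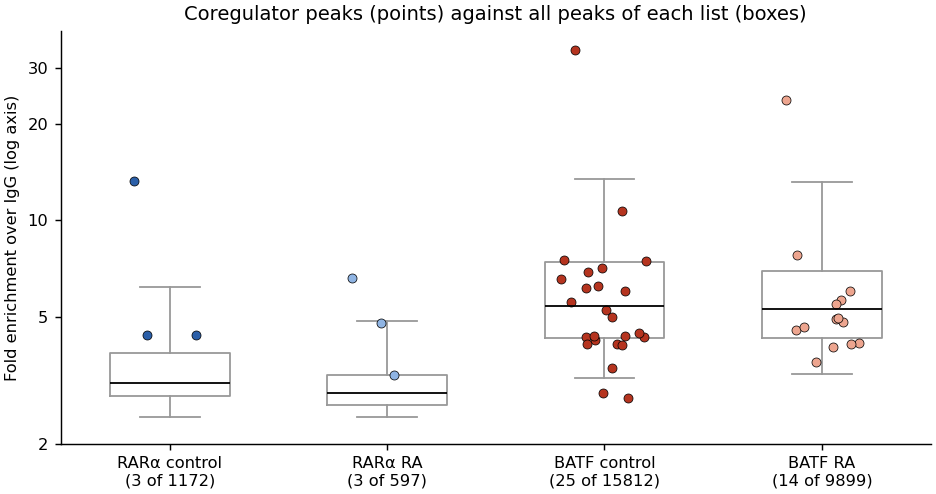
Fold enrichment over IgG (log axis) of the coregulator peaks (points) and of all peaks in each list (boxes: quartiles and median, whiskers at the 5th and 95th percentile). The RARα points lie above the medians of 3.09 and 2.87, and the BATF points lie on both sides of 5.40 and 5.29, with the Ncoa2 intron 16 site at 34.3 and 23.8.

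With RA, fewer BATF peaks were listed at the coregulator genes, and the share of control peaks with an RA peak nearby was close to that of the whole list. Of the 25 control peaks, 17 had a BATF RA peak within 5 kb (68.0%, Wilson 95% interval 48.4 to 82.8), against 69.9% of all BATF control peaks. When at least 1 bp had to be shared, the number was 13 (52.0%, 33.5 to 70.0), against 54.4%. By class, 9 of the 10 promoter peaks, 5 of the 10 intron peaks and 3 of the 5 intergenic peaks had an RA peak within 5 kb, against 74.3%, 64.5% and 62.3% of the list.

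The 8 unmatched BATF control peaks were 4 at Tbl1xr1, 2 at Ncoa2, 1 at Ncoa3 and 1 at Med1. They were weaker than the matched ones, with a median fold of 4.16 against 6.00 and a median of 18.5 fragments against 27. Over the whole list the medians were 4.55 and 6.04 for fold, and 25 and 35 for fragments. The BATF RA pool had 71.1% of the fragments of the control pool, and at that depth the unmatched peaks would correspond to 10.7 to 24.2 fragments. The weakest BATF RA peak at a coregulator gene had 12 fragments, and the weakest of the list 10. Depth was thus lower in the pool with fewer listed peaks, and its part in the unmatched peaks was not tested.

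At the 17 matched BATF pairs, which use 13 different RA peaks, the fold was lower with RA in 13 (76.5%, 52.7 to 90.4), against 66.7% of all BATF pairs. The exceptions were 1 pair at an intron of Ncoa3, 2 pairs at Tbl1xr1 and 1 at Tbl1x. The interval on this share treats the pairs as independent, which pairs with the same RA peak are not. Without the 1 added to each side, the RA value was the smaller one at 11 of the 17 pairs. Direction changed at the Ncoa3 peak starting at 166031111 (control 7.65, RA 7.90) and the Nrip1 intron peak (5.29 and 5.54). The lowest IgG level was 2.86 in the BATF control list and 2.03 in the BATF RA list, so the added 1 weighs more with RA. The share of all BATF pairs was not computed that way. The median ratio of RA to control was 0.865 for fold and 0.866 for scaled fragments, and the medians over all pairs were 0.870 and 0.886. Every one of the 17 intervals on the ratio of scaled fragments included 1, so at no matched BATF pair could a difference between the pools be told from counting error. The intervals were wide, such as 0.261 to 1.05 at the Tbl1xr1 promoter, so they do not show that the pools were equal. The 8 unmatched control peaks have no RA count and are not covered by these intervals. Some pairs also compare separate places, with summits up to 3767 bp apart. The ratios ran from 0.538 at the Tbl1xr1 promoter to 1.41 at an intergenic Tbl1xr1 peak, the latter set against an RA peak 2100 bp away. Fold and scaled fragments went apart at 4 promoter pairs. At Ncoa2 both pairs had a lower fold but 1.21 and 1.30 times the scaled fragments. In the other direction, the Tbl1xr1 peak that starts at 22075121 had 1.30 times the fold but 0.610 times the scaled fragments, and the Tbl1x peak that starts at 77510684 had 1.21 and 0.985 times.

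**Figure D5:**
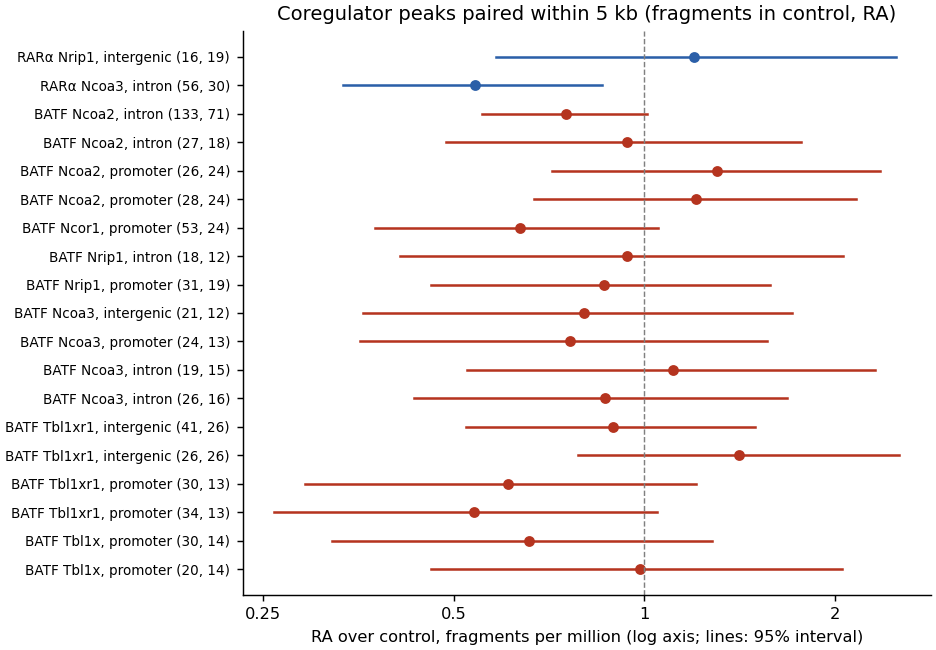
Ratio of RA to control in fragments at the summit, scaled to equal depth (log axis, dot with exact 95% interval as a line) for each coregulator peak with an RA peak within 5 kb; labels give the class and the fragments in control and RA. The Ncoa3 RARα interval (0.335 to 0.856) lies below 1, and the intervals of the other RARα pair and of all 17 BATF pairs include 1.

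By listed peaks, RARα and BATF met at 1 of the 8 genes, Ncoa3. The paper instead names Ncoa3 among genes bound mostly by RARα alone. BATF control peaks sharing bases with RARα there had folds of 4.09 to 6.12, where the median of that list was 5.40. Of the 3 RARα control peaks, the 2 at Ncoa3 lay within 5 kb of BATF control peaks and overlapped them, and the 1 at Nrip1 did not (61.9% of the whole RARα control list did). Of the 3 RARα RA peaks, the 1 at Ncoa3 lay near BATF RA peaks, and those at Nrip1 and Ncoa1 did not (16.4% of the list did). An RARα RA peak was present for 2 of the 3 RARα control peaks, against 10.2% of the list, and an RARα control peak for 2 of the 3 RA peaks, against 19.6%. Seen from BATF, 3 of the 25 control peaks lay near an RARα control peak, all at Ncoa3, against 7.16% of the list. With 3 peaks a list these fractions say little beyond the places themselves.

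A further 31 genes for nuclear receptor cofactors were counted in the same way. They include the deacetylases and Sin3 proteins, the acetyltransferases p300, CBP, GCN5 and PCAF, other Mediator subunits and other NCOA genes. BATF control peaks named 28 of them, with 56 peaks, and BATF RA peaks named 23, with 29 peaks, where the shares of all protein-coding genes were 48.6% and 38.2%. In both lists BATF was present at 22, in the control list alone at 6 and in the RA list alone at 1. RARα control peaks named 3 (3 peaks) and RARα RA peaks 1, where the shares were 7.18% and 3.19%. Sin3b and Ppargc1a, looked up after the counts were known, had no peak in any list.

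The RARα peaks of these further genes had folds from 2.53 to 3.86. Ep300, for the acetyltransferase p300, had an RARα control peak in an intron over a B1 repeat with a fold of 3.28 and a q-value of 0.176. Lcorl had one in intron 4 with a fold of 3.61 and a q-value of 0.0554. Ncoa5 had one 57087 bp away, with a fold of 3.86 and a q-value of 0.0134. That peak is intergenic, and the annotation also gives it to Zfp335, Slc12a5, Pltp, Pcif1 and Mmp9. Crebbp, for CBP, had the single RARα RA peak, in an intron over a B1 repeat, with 9 fragments and a fold of 2.53, the fewest fragments of any RARα RA peak. The peak caller's p-value for the Crebbp peak was 3.01 on the -log10 scale, just past the cutoff used for the RARα lists. A q-value limit of 0.05 leaves this peak out, as it does the peaks at Ep300 and Lcorl. None of these 4 peaks had an RARα peak of the other condition within 5 kb.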

How the data were processed

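RARα and BATF ChIP-seq peak lists of mouse CD8 T cells, with 1 h of RA or none, were used as deposited. Per the labels and file headers, the authors aligned paired-end reads with Bowtie2 to mm10 and called peaks with MACS 2.2.7.1, on 2 ChIP files per list against 1 IgG file of 11410673 fragments, at a p-value cutoff of 0.001 (RARα) or 1e-05 (BATF). The deposited pileup is a signal in fragments at the summit, scaled by 0.9875 in the BATF control list alone and divided by that step here. The deposited fold enrichment is a ratio, and the deposited p-values and q-values are on the -log10 scale. The IgG level was recovered from pileup and fold, and is the background the peak caller used at a peak rather than a count of IgG fragments. In the RARα RA list its median and its lowest value were both 2.95.

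Members and gene lists were chosen with earlier results of these data known. Every member peak was to be accounted for, and each gene's BATF peak of highest fold in each list given with its fragments and interval. Distances run from peak edge to gene body in RefSeq GRCm38.p6, the assembly behind mm10, which matched at least 99.5% of the symbols in each list; this table has no strand. Peaks were called near each other within 5 kb, following the methods, and a control peak was paired with its nearest RA peak. Wilson and exact intervals (95%) cover counting error only. The Wilson intervals also treat peaks or pairs as independent, although many come from the same gene. Overlap steps were tested on simulated data. Tables were read with pandas 2.3.3 on numpy 2.4.6, intervals came from scipy 1.17.1 and plots from matplotlib 3.10.9 (Python 3.11.15). The lists skip 121, 130, 416 and 257 peak numbers (RARα control, RARα RA, BATF control, BATF RA); those calls were not analysed here. Genome sequence was not used. Of the list of further cofactor genes, 1 is not reported here.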

Additional observations from a re-analysis of the deposited data

How the results depend on the processing

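Of 47 recomputed counts, 43 stayed within 1.5 times the reported count and 4 moved, all under 1 alternative. Limiting every list to a fold enrichment of at least 5 left 1 RARα control, 1 RARα RA, 12 BATF control and 5 BATF RA peaks at the coregulator genes, against 3, 3, 25 and 14; the limit itself removed the rest, whose folds lie below it. The other alternatives were stricter p-values or q-values, gene assignment within 10 kb of the gene or by the first symbol, merged peaks, overlap by 1 bp or within 1 kb, and other measures of the BATF pairs. None turned the direction of a count. Fold without the added 1 reversed single BATF pairs at Ncoa3 and Nrip1, as given above. With 1 list per condition the spread between samples is unknown. No paired analysis was possible because each condition is 1 list called on pooled files.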

Other observations

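Med1 has strong BATF peaks beside it that the annotation gives to its neighbours. A BATF control peak 1194 bp from the gene, on chromosome 11 from 98149234 to 98150960 at the promoter of Fbxl20, had 115 fragments and a fold enrichment of 22.9. In the BATF RA list it spanned 98149263 to 98150963, with 61 fragments and a fold of 16.9. On the other side, a BATF control peak at Cdk12 from 98203285 to 98203663 lay 9972 bp from Med1 with a fold of 5.15. These peaks were not counted for Med1, whose own promoter peak had a fold of 2.88. No other member gene had a listed peak within 10 kb that did not name it.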
